A study of Mus musculus with 6 samples.

Results

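Skin wounds of mice aged 5 months were compared with skin wounds of mice aged 2 months, all taken 8 days after injury, by total RNA on Illumina bead arrays. The comparison used 4 of the 6 arrays of the series, those of the tamoxifen experiment, chosen by label: the arrays numbered replicate 1 came from mice of 5 months and those numbered replicate 2 from mice of 2 months. Each age was represented by 1 knockdown and 1 control wound, so the groups were 5-month knockdown, 5-month control, 2-month knockdown and 2-month control, with 1 array each. All 4 wounds were full-thickness wounds of the dorsal skin of C57/BL6 mice, all carried β-catenin alleles with exons 2 to 6 floxed, and all received tamoxifen. The knockdown mice also carried the tamoxifen-activated recombinase Cre-Esr1, and the controls did not. The other 2 arrays came from wounds of 2-month mice whose β-catenin alleles had exon 3 floxed: 1 was given Adenovirus-CRE, which stabilises β-catenin, and 1 Adenovirus-GFP as its control. They had no counterpart at 5 months and entered no fit except 1 alternative with all 6 arrays. Age and replicate number make the same split of the arrays, so age cannot be told apart from anything else that differed between the replicates. The labels call each array a biological replicate, and with 2 wounds an age the number of arrays limits the precision throughout.

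At this stage a skin wound is being covered by a tongue of keratinocytes that migrate, stratify and rebuild the cornified envelope, the shell of small proline-rich (Sprr), late cornified envelope (Lce) and loricrin proteins that transglutaminases crosslink at the skin surface. Underneath, granulation tissue holds fibroblasts that lay down collagen, new vessels, macrophages, and a shrinking number of neutrophils. The wound bed also borders the panniculus carnosus, the thin skeletal muscle of mouse skin, and hair follicles.

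Levels below are log2 values of the deposited normalized signal, the knockdown wound's before the control's at each age, and a difference is the level at 5 months minus that at 2 months, with the standard error of limma's fit that holds genotype as a block. Of 45281 probes, 16565 were detected, at a detection p-value under 0.01, on 2 or more of the 4 arrays, and between 15853 and 16656 probes were detected per array. Tested probes with 1 gene symbol covered 9855 genes, each represented by its brightest tested probe. The labelled tissue could be checked: keratins and collagens were among the brightest genes on all 4 arrays. As a check of sex, the Y-linked Eif2s3y was at 8.81 and 9.05 at 5 months, against 8.84 and 9.09 at 2 months. Ctnnb1, the gene of β-catenin, stood at 11.93 and 12.04 at 5 months, against 11.86 and 11.48 at 2 months, on its brightest probe, and where its probes lie relative to the floxed exons is not known here. No gene was available to check the age label itself.

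The Sprr2 genes, which encode crosslinked proteins of the cornified envelope, took the first 3 places among named genes lower in both genotypes, ordered by the smaller of the pair differences, and their promoters are shown because these genes lie side by side in the epidermal differentiation complex and were low together. The sequences are the 250 bases before the gene's start, on the plus strand of chromosome 3 in RefSeq's GRCm38.p6, at chr3:92364937-92365186 for Sprr2f, chr3:92407741-92407990 for Sprr2i and chr3:92432332-92432581 for Sprr2k. Capitals mark matches, on either strand, to the AP-1 motif TGANTCA and to the octamer ATTTGCAT.
Sprr2f: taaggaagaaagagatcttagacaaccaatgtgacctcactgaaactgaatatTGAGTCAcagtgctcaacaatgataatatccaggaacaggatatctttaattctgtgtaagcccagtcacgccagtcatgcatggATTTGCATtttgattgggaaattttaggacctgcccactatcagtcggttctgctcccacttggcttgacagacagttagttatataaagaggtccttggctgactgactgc
Sprr2i: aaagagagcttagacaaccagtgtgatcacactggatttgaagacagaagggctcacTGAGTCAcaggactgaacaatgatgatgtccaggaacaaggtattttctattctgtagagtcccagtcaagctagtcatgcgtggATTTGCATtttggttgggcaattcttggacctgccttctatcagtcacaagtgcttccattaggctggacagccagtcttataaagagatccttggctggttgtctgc
Sprr2k: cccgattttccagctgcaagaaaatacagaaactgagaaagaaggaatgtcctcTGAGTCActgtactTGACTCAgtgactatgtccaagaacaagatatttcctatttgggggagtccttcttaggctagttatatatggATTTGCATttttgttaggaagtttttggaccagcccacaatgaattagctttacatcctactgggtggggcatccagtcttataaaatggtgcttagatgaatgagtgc

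The AP-1 match began 197 bases before the start of Sprr2f and 193 before that of Sprr2i, and Sprr2k held matches at 196 and 182 bases before its start. The octamer began 112, 108 and 109 bases before the starts of Sprr2f, Sprr2i and Sprr2k. Of the 10 Sprr genes with an entry in the promoter table, 8 held the AP-1 motif (80%), against 6.75% of all 32851 promoter windows, and 6 held the octamer (60%), against 1.6%. None of the 16 Lce, 8 epidermal kallikrein and 11 keratin promoters held either motif, and the Grainyhead motif AACCGGTT was in none of these windows and in 0.116% of all. A match is a description of the letters, and the Sprr2 promoters are related sequences, so they are not independent counts.

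Across the array, no probe passed limma's test at an adjusted p under 0.05 after Benjamini-Hochberg adjustment (0% higher and 0% lower at 5 months), and the lowest adjusted p was 0.452. At an unadjusted p under 0.05, 1671 probes were counted (10.1%, where 5% is nominal), of which 707 were higher (4.27%) and 964 lower (5.82%) at 5 months, so that 42.3% were higher. With each array's raw log2 intensities set relative to its median in place of the deposited normalization, 26.9% of such probes were higher. By gene, 4.33% were higher, 5.67% lower and 10% either way at that threshold. The fit has 1 residual degree of freedom, and with 2 arrays an age the smallest p of an exact two-sided permutation test is 0.333. Every difference named below missed the adjusted threshold, and the words higher and lower describe these 4 arrays.

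The knockdown pair and the control pair share no array, which allows a description by size: a probe was taken as different at least 2-fold in both genotypes if the log2 difference was 1 or more in both pairs with the same sign. This held for 16 probes higher at 5 months (0.0966% of those tested) and 62 lower (0.374%), while 138 (0.833%) were at least 2-fold apart in opposite directions. The 16 probes cover 11 named genes and 3 probes without a symbol, and the 62 cover 52 named genes and 4 such probes. Counted by gene on the brightest probe, 10 were higher (0.101%) and 38 lower (0.386%). The probe just inside the limit was at 1.04 for Spon2, against 0.997 for Fcrls just outside it, and on the lower side -1.0002 for Mxd1, against -0.9979 for Sowahb just outside. In 8 of the probes higher and 30 of those lower, the nearest 2 arrays of different age were also 2-fold apart. Over all probes the differences of the pairs correlated weakly (r = 0.115, rho = 0.238 across probes, which are not replicates), and the knockdown pair was the wider, with a standard deviation of 0.533, against 0.412 in the control pair. By gene, 36.3% were higher in both genotypes, 23.7% lower in both and 40% opposite, and the median difference of all genes was 0.05. In 25.9% of genes both wounds at 5 months lay above both at 2 months, and in 15.7% they lay below. Counts of list and family members below are to be read against these shares.

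**Figure D1:**
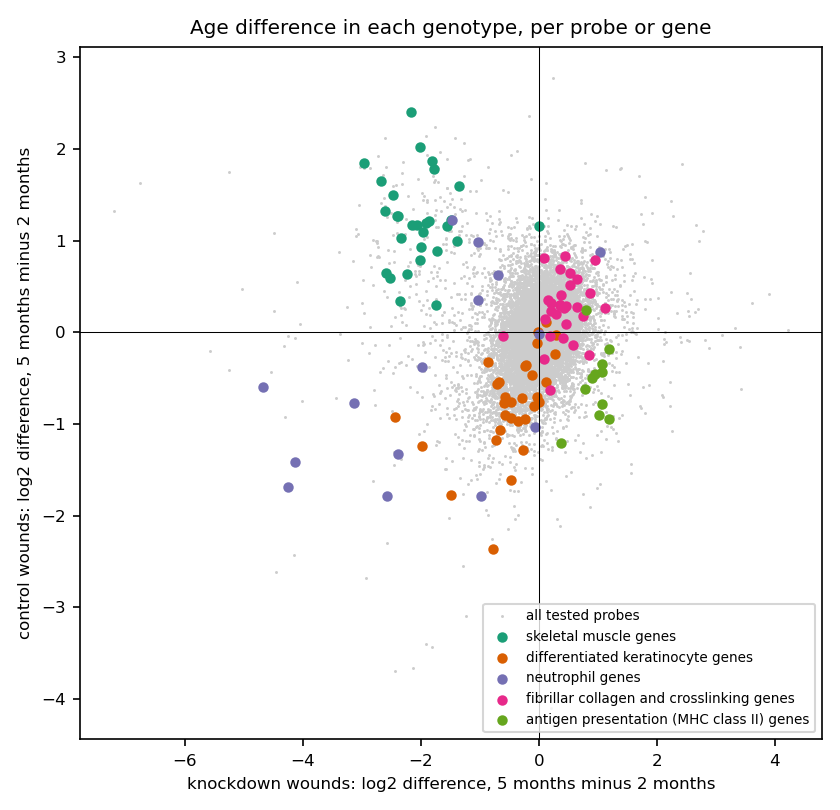
Each point is a tested probe, with the log2 difference (5 months minus 2 months) of the knockdown pair on the x axis and that of the control pair on the y axis. Grey points are all 16565 tested probes and coloured points are genes of named lists: differentiated keratinocyte and neutrophil genes lie mostly to the lower left, fibrillar collagens just to the upper right, and skeletal muscle genes to the upper left, where the pairs are opposite.

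**Figure D2:**
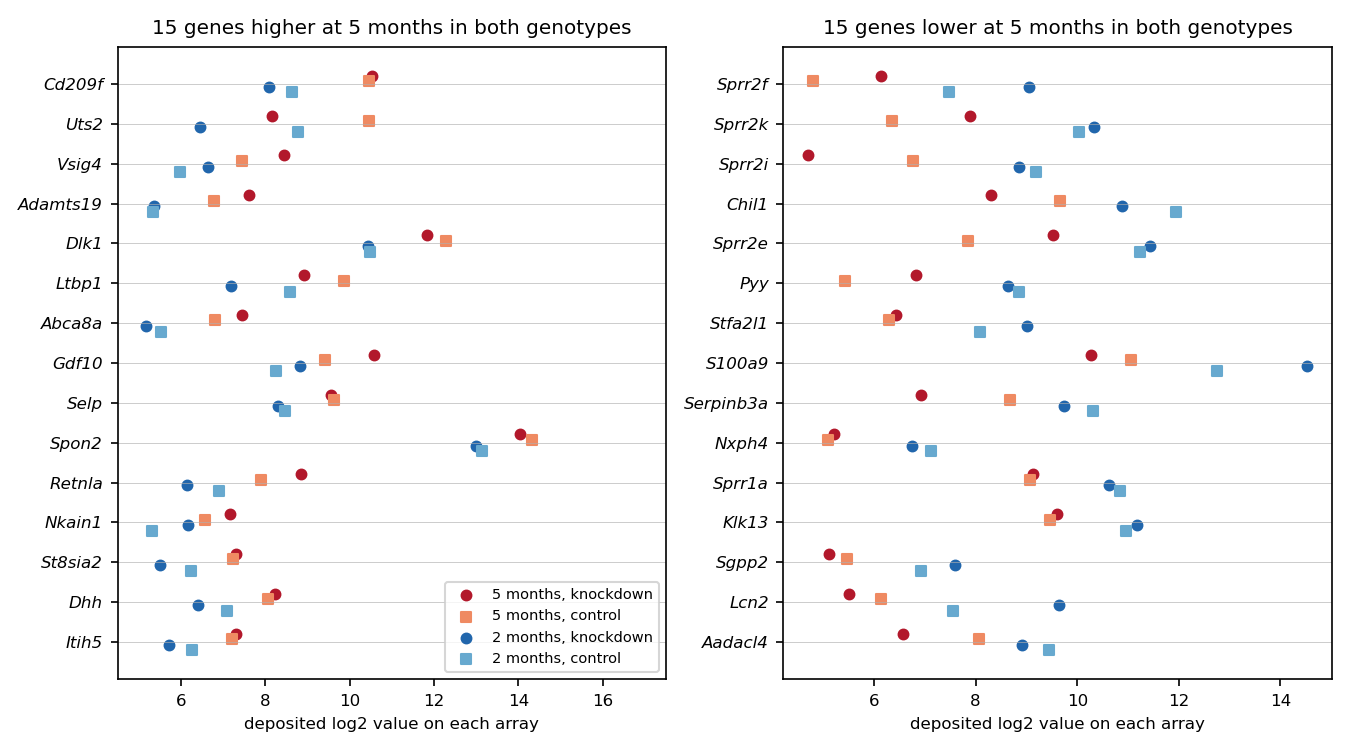
Log2 level (x axis), on each of the 4 arrays, of the 15 genes each way with the largest differences of one sign in both genotypes, ranked by the smaller of the pair differences. Warm colours are wounds at 5 months and blue ones at 2 months, circles are knockdown and squares control: for Sprr2k the 5-month wounds are at 7.88 and 6.35, against 10.32 and 10.04 at 2 months.

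Most Sprr genes of the cornified envelope were lower at 5 months than at 2 months, and they were so in both genotypes. Sprr2f had levels of 6.13 and 4.80 at 5 months, which is below detection on both arrays, against 9.06 and 7.48 at 2 months. Set against the dimmest detected probe, it was at least 4.68-fold lower at 5 months. Sprr2i was at 4.71 and 6.77 at 5 months, against 8.85 and 9.19 at 2 months, a difference of -3.28 ± 0.47 (SE). Its level in the 5-month knockdown wound is below detection, so the size of that difference is uncertain. Sprr2k was at 7.88 and 6.35, against 10.32 and 10.04, a difference of -3.07 ± 0.36. For each of these genes both wounds at 5 months lay below both at 2 months, with limma adjusted p = 0.452.

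Sprr2e was at 9.52 and 7.85 at 5 months, against 11.44 and 11.24 at 2 months. Sprr2g was at 8.77 and 6.46, against 10.01 and 9.55. Sprr1a, a precursor made in stressed and wounded keratinocytes, was at 9.12 and 9.07, against 10.62 and 10.84, so that the wounds of each age lay close together and the ages 3.10-fold apart. Of the 11 Sprr genes tested, 10 were lower in both genotypes, with a median difference of -1.63, and in 10 both wounds at 5 months lay below both at 2 months, which held for 15.7% of all genes in that direction and 25.9% in the other. The exception, Sprr2a1, was at 7.91 and 7.78 at 5 months, against 7.91 and 8.55 at 2 months. The median lay between -2.30 and -1.52 with any 1 array left out. Sprr2 genes are near copies of each other, so one gene's probe may read its neighbours, and the 11 are not separate measurements. These families were picked after their values were seen.

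The Lce genes, which sit in the same gene complex, were lower in one subfamily and mixed in another. All 5 Lce3 genes tested, which are known in human skin to be induced by barrier damage, were lower in both genotypes: Lce3b was at 11.30 and 10.35 at 5 months, against 12.25 and 11.83 at 2 months. Lce3e was at 10.19 and 8.96, against 11.35 and 10.35. Of the 11 Lce1 genes, which belong to the normal cornified layer, 4 were higher in both genotypes (36.4%, against 36.3% of all genes), 1 was lower in both and 6 were opposite. Their median was 0.53 in the knockdown pair, -0.04 in the control pair and 0.15 over both. Lce1b, for example, was at 14.44 and 14.41 at 5 months, against 13.87 and 14.32 at 2 months. Without the 2-month knockdown array the Lce1 median was -0.06, without the 2-month control array it was 0.40, and with raw intensities set relative to the array median it was 0.05, whereas the Lce3 median stayed between -1.70 and -0.56 whichever array was left out. Loricrin (Lor), the main envelope protein, was at 15.79 and 15.72, against 15.82 and 15.84, near the top of the array's scale.

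The epidermal kallikreins, proteases that cut the bonds between cornified cells as they shed, were all 8 lower in both genotypes, with a median of -0.88. In all 8 both wounds at 5 months lay below both at 2 months, which held for 15.7% of all genes. Klk13 was at 9.59 and 9.46 at 5 months, against 11.17 and 10.96 at 2 months, a difference of -1.54 ± 0.14, and its other 2 tested probes also differed at least 2-fold in both genotypes. Klk10 was at 8.11 and 8.73, against 9.68 and 10.10. Klk8, at 13.87 and 13.67, against 14.22 and 14.28, had the smallest difference of the family, -0.48. With any array left out, all 8 stayed lower.

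Several other genes of differentiated keratinocytes were on the same side. Serpinb3a, a protease inhibitor of stratified epithelium, was at 6.93 and 8.68 at 5 months, against 9.74 and 10.30 at 2 months. Tgm1, the membrane transglutaminase of the envelope, was at 9.56 and 9.60, against 10.28 and 10.78. Rptn, which encodes repetin, was at 14.71 and 14.37, against 15.37 and 15.44. Involucrin (Ivl), the early scaffold of the envelope, was at 12.79 and 12.24, against 13.36 and 13.15. Grhl3, a Grainyhead transcription factor needed for the skin barrier and wound closure in the mouse, was at 7.36 and 7.46, against 8.70 and 9.06, and a further probe of it also differed at least 2-fold in both genotypes. All 3 Grainyhead genes tested were lower in both genotypes, Grhl1 and Grhl2 by -0.65 and -0.74.

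Of 31 tested genes of the differentiated keratinocyte list, 25 were lower in both genotypes, 1 higher in both and 5 opposite, against 23.7% and 36.3% of all genes. The list's median was -0.61, against 0.05 over all genes. In 22 of the 31 both wounds at 5 months lay below both at 2 months, which held for 15.7% of all genes. Flg2, of the filaggrin family, was the gene higher in both, at 11.16 and 11.35 at 5 months, against 11.05 and 11.25 at 2 months. The list's median stayed between -0.73 and -0.39 with any array left out. Its summed linear signal was 438971 and 402140 at 5 months, against 513213 and 567273 at 2 months, lower in both genotypes. In bulk tissue, fewer cells of a type and less RNA per cell cannot be told apart.

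Basal and wound-edge keratinocyte genes behaved less evenly. Of 17 tested, 16 were lower in both genotypes (94.1%, against 23.7% of all genes), with a median of -0.69. Even so, the ages overlapped for all except 2 of them, Dsc3 and Sfn. Krt6b, a keratin of migrating wound keratinocytes, was at 11.93 and 14.43 at 5 months, against 13.57 and 14.73 at 2 months. The knockdown wound was the lower at each age, and the 5-month knockdown wound was the lowest. Krt5, of basal cells, was at 12.30 and 13.56, against 13.01 and 14.11, lower in the knockdown wound at each age. Trp63, the master regulator of stratified epithelium, was at 10.05 and 11.14, against 10.97 and 12.21, a difference of -0.93 in the knockdown pair and -1.07 in the control pair. With 1 array left out this list's median ranged from -1.24, without the 5-month control array, to 0.0052, without the 5-month knockdown array, and without the 2-month control array it was -0.08. Krt10 and Krt14 were at about 16 on all arrays, the top of the scale, where a difference could not be seen. Sebaceous gland genes were lower in both genotypes in 8 of 10 (80%, against 23.7% of all genes), with a median of -0.82. That median was -0.03 without the 5-month knockdown array and -1.52 without the 5-month control array.

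**Figure D3:**
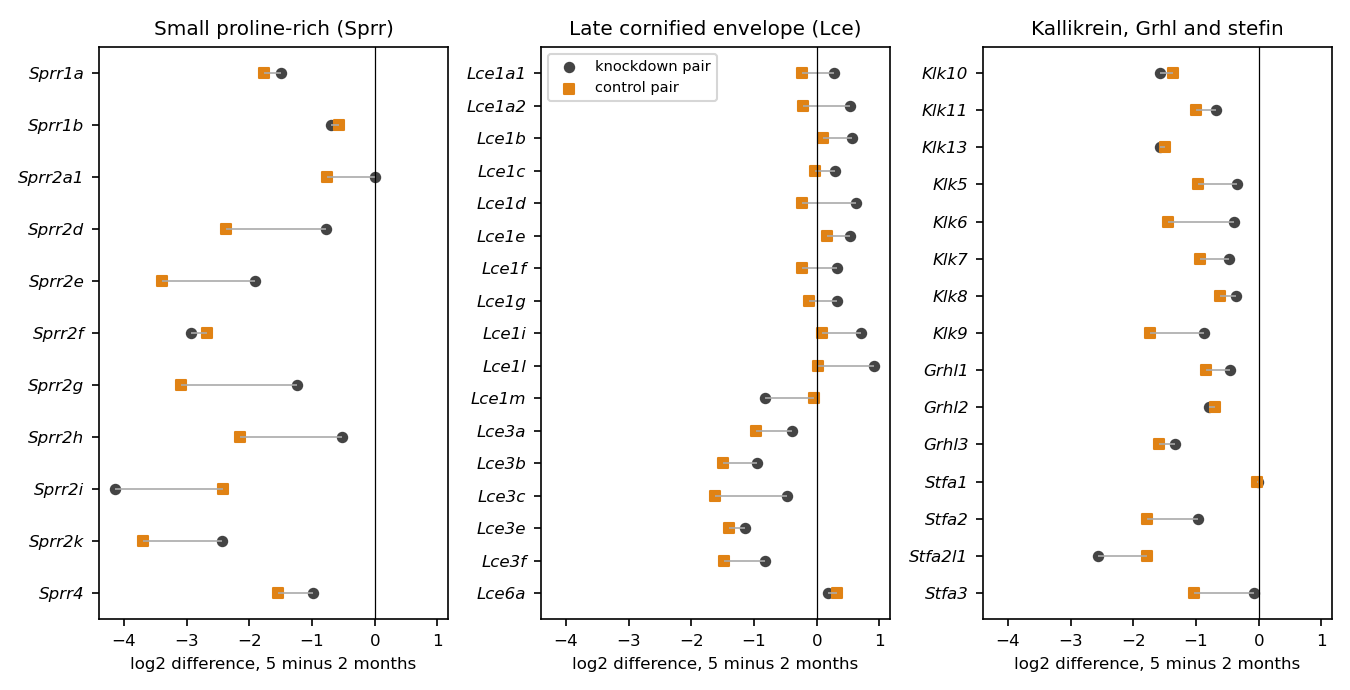
Log2 difference on the x axis (5 months minus 2 months) for each tested Sprr, Lce, kallikrein, Grainyhead and stefin gene, with circles for the knockdown pair and squares for the control pair and a line at 0. All 8 epidermal kallikreins and 10 of 11 Sprr genes lie left of 0 in both pairs, while the Lce genes fall into a lower group of Lce3 genes and a group near 0.

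Neutrophil genes were also lower at 5 months, and they were highest on 1 array. S100a9, a calcium-binding alarmin of neutrophils that wounded keratinocytes also make, was at 10.28 and 11.06 at 5 months, against 14.52 and 12.76 at 2 months, a difference of -2.97 ± 0.68. Its partner S100a8 was at 12.23 and 13.65, against 15.36 and 14.43. Lcn2, which encodes the iron-scavenging protein of neutrophil granules, was at 5.52 and 6.13, against 9.64 and 7.55, with the 5-month knockdown level below detection. In these genes both wounds at 5 months lay below both at 2 months, and the 2-month knockdown wound was the highest. The stefin A gene Stfa2l1, a cysteine protease inhibitor, was at 6.44 and 6.30, against 9.01 and 8.08. Cxcr2, the receptor that draws neutrophils to chemokines, was below detection at 5 months, at 5.70 and 5.36, and at 8.08 and 6.69 at 2 months, which is at least 2.54-fold lower at 5 months.

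Of 15 tested genes of the neutrophil list, 10 were lower in both genotypes (66.7%, against 23.7% of all genes). Of the others, 1 was higher and 4 were opposite, and the list's median was -1.18. The one higher gene was Mpo, the myeloperoxidase of granules, at 7.34 and 6.33 at 5 months, against 6.31 and 5.46 at 2 months. The list's summed linear signal was 80948 and 89429 at 5 months, against 163389 and 113554 at 2 months. Such a sum weighs most on the brightest genes. The stefin gene Stfa1 lay at the top of the array's scale on all 4 arrays, where a difference could not be seen. The sums are therefore no measure of the list as a whole. Granule genes Camp, Elane, Ltf and Ngp were not detected on enough arrays to be tested.

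The 2-month knockdown wound stood apart in acute inflammatory genes. Cxcl2, a neutrophil chemokine, was at 6.99 and 6.59 at 5 months, against 14.18 and 5.27 at 2 months. Il1b was at 8.67 and 8.24, against 13.70 and 7.77, and Tnf was at 6.21 and 6.09, against 10.47 and 6.14. The haemoglobin gene Hbb-bs was at 12.54 and 13.19, against 15.27 and 12.36. Without that array the neutrophil list's median was -0.60, with 10 of 15 genes still lower, and without the 2-month control array it was -1.81. Without the 2-month knockdown array the median of 24 inflammatory cytokine and chemokine genes was 0.30, against -0.11 with it. The part of that wound's inflammatory genes in the neutrophil result was not tested.

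The chitinase-like protein gene Chil1, made by macrophages, neutrophils and epithelium, did not follow that array. It was at 8.31 and 9.65 at 5 months, against 10.88 and 11.95 at 2 months, a difference of -2.44 ± 0.16, with the control wound the higher at each age. Chit1, which encodes the enzyme chitotriosidase, was at 7.75 and 8.31, against 9.02 and 9.57, a difference of -1.26 in each genotype. Arg1, the arginase of healing macrophages, was at 11.04 and 10.61, against 12.78 and 11.83, and both of its tested probes differed at least 2-fold in both genotypes.

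Several macrophage genes, by contrast, were higher at 5 months, among them some receptors of resident-type macrophages but not all of those tested. Cd209f, a C-type lectin of the DC-SIGN family, was at 10.52 and 10.47 at 5 months, against 8.10 and 8.64 at 2 months, a difference of 2.13 ± 0.21. Vsig4, a complement receptor of tissue macrophages, was at 8.44 and 7.46, against 6.64 and 5.98, and it was detected in only 1 of the 2-month wounds. Retnla, a resistin-like gene that interleukin 4 induces in mouse macrophages, was at 8.85 and 7.89, against 6.13 and 6.90. Both wounds at 5 months lay above both at 2 months in all 3 genes. Cd163, the scavenger receptor for haemoglobin, was at 8.63 and 8.97, against 7.51 and 8.07. Mrc1, the mannose receptor, was at 11.89 and 12.09, against 11.29 and 11.58. Fcna, which encodes the lectin ficolin A, was at 8.88 and 8.53, against 7.98 and 7.24.

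A family of 17 tested macrophage genes held lectins and scavenger receptors, and also Retnla, Lyz1, Gas6, Pf4 and Cbr2, which are neither. Of the 17, 12 were higher in both genotypes, 1 was lower and 4 were opposite, with a median of 0.55. Over all genes, 36.3% were higher in both and 23.7% lower. The opposite ones were Folr2, Lyve1, Msr1 and Pf4, each lower at 5 months in the knockdown pair and higher in the control pair. The lower one, Stab1, was at 11.81 and 11.47 at 5 months, against 12.08 and 11.75 at 2 months. General macrophage genes were closer together. Csf1r, the growth factor receptor of the lineage, was at 10.02 and 10.09, against 9.75 and 9.85. The list of 24 macrophage genes had 13 higher in both genotypes (54.2%, against 36.3% of all genes), 3 lower and a median of 0.23. That median was 0.01 without the 2-month control array, so its size rests on that wound. The 17-gene family was chosen after its values were seen, and it shares Cd163, Mrc1 and Retnla, among others, with this list. The family's median, between 0.32 and 0.65 with any array left out, is therefore a description and no separate support.

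Among vessel genes, Selp, the P-selectin that starts leukocyte rolling, was at 9.55 and 9.62 at 5 months, against 8.30 and 8.47 at 2 months, a difference of 1.21 ± 0.14. E-selectin (Sele) was at 6.15 and 6.65, against 5.15 and 5.78, which are below detection, and was at least 1.26-fold higher. The chemokine-binding receptor Ackr1 of venules was at 9.28 and 9.47, against 8.75 and 8.78. Of 18 endothelial genes, 11 were higher in both genotypes (61.1%, against 36.3% of all genes), none was lower in both and 7 were opposite, with a median of 0.43. Vwf, the clotting factor stored in endothelium, was at 10.26 and 9.93, against 8.94 and 9.58. Cdh5, the endothelial cadherin, was at 10.04 and 10.23, against 9.92 and 9.32. Pecam1 was at 10.42 and 11.01, against 10.50 and 9.97, so its ages overlapped. The list's median lay between 0.26 and 0.58 as arrays were left out.

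Collagen, fibroblast and elastic fibre genes were higher at 5 months by small amounts in many members, and genes of the provisional wound matrix were mixed. Of 29 fibrillar collagen and crosslinking genes, 22 were higher in both genotypes (75.9%, against 36.3% of all genes), 1 was lower and 6 were opposite. The list's median was 0.33, with a range of 0.26 to 0.39 as arrays were left out. In 18 of them both wounds at 5 months lay above both at 2 months, which held for 25.9% of all genes. Col15a1, a basement membrane collagen, was at 11.87 and 11.82 at 5 months, against 10.92 and 11.03 at 2 months. Col6a2, a beaded-filament collagen, was at 13.62 and 13.43, against 12.76 and 12.999. Col1a1, the main collagen of scar and dermis, was at 15.54 and 15.60, against 15.25 and 15.40, close to the top of the scale. P4ha1, a proline hydroxylase of collagen that hypoxia induces, was the one lower gene, at 7.49 and 7.47, against 8.10 and 7.51.

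Of 21 fibroblast genes, 15 were higher in both genotypes (71.4%, against 36.3% of all genes) and 2 lower, with a median of 0.32 that was 0.20 without the 2-month control array. Fap, fibroblast activation protein, was at 9.42 and 8.84 at 5 months, against 8.23 and 7.93 at 2 months. Thy1, a surface protein of fibroblasts and T cells, was at 13.84 and 13.78, against 13.05 and 13.11, with little spread within either age. Dpp4, a marker of upper dermal fibroblasts in the mouse, was lower, at 10.0009 and 10.24, against 10.72 and 10.38. Spon2, which encodes a secreted matrix protein, was at 14.04 and 14.32, against 12.999 and 13.14. Of 21 provisional and matricellular matrix genes, 11 were higher in both genotypes, 5 lower and 5 opposite, with a median of 0.09 and a mean of -0.01. Tnc, the tenascin of wound matrix, was one of the higher ones, at 13.74 and 13.46, against 12.88 and 12.67. This list's median was between 0.03 and 0.13 with 1 array left out, and -0.05 with raw intensities set relative to the array median.

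Elastic fibre genes were on the same side in 10 of 13 (76.9%, against 36.3% of all genes), with none lower in both genotypes and a median of 0.26, which was 0.51 without the 2-month control array. Mfap5, a microfibril protein, was at 13.35 and 13.06 at 5 months, against 12.59 and 12.49 at 2 months. Eln, elastin itself, was at 10.10 and 11.24, against 10.05 and 10.99, so its ages overlapped. Ltbp1, which stores latent TGF-beta on microfibrils, was at 8.91 and 9.87, against 7.19 and 8.58 on its brightest probe, but its other tested probe differed by 0.30 in the knockdown pair and -0.39 in the control pair. Of 17 TGF-beta pathway genes, 9 were higher in both genotypes (52.9%, against 36.3% of all genes) and 3 lower. The ligand Tgfb2 was at 8.71 and 8.57, against 7.94 and 8.09, and the receptor Tgfbr2 was at 14.12 and 14.13, against 13.52 and 13.73. Gdf10, a bone morphogenetic protein relative, was at 10.59 and 9.43, against 8.83 and 8.25. Of the tissue inhibitors of metalloproteinases, Timp1 was at 13.43 and 13.08, against 12.84 and 12.29.

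Growth genes that are best known from fetal and juvenile tissue, most of them imprinted, were higher rather than lower in the wounds of the older mice. Dlk1, a paternally expressed Notch-like protein that holds back fat cell formation, was at 11.83 and 12.28 at 5 months, against 10.44 and 10.48 at 2 months, a difference of 1.59 ± 0.18. A further probe of Dlk1 was at 10.05 and 10.36, against 8.66 and 8.59, so the probes gave alike values. Mest was at 10.28 and 10.06, against 9.52 and 9.37, and Ndn, which encodes necdin, was at 11.81 and 11.51, against 11.19 and 11.07. The heparin-binding growth factor pleiotrophin (Ptn) was at 13.61 and 13.03, against 12.80 and 12.51. Of 12 tested genes of this list, 10 were higher in both genotypes (83.3%, against 36.3% of all genes). None was lower in both and 2 were opposite, and the median was 0.45, between 0.27 and 0.60 as arrays were left out. Igf2 was one of the opposite genes, at 11.66 and 12.93, against 12.05 and 11.68.

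In the insulin-like growth factor axis, 8 of 14 genes were higher in both genotypes (57.1%, against 36.3% of all genes) and 1 was lower. Igf1, the growth factor, was at 11.95 and 11.75 at 5 months, against 11.34 and 11.11 at 2 months. Its binding protein Igfbp5 was at 14.11 and 14.31, against 12.88 and 13.59, and Igfbp6 was at 12.10 and 12.03, against 11.28 and 11.34. The receptor Igf1r was the lower gene, at 8.88 and 8.70, against 9.14 and 8.99. The list's median was 0.25, and it was 0.03 without the 5-month control array, with 7 genes higher and 7 lower. It was 0.50 without the 5-month knockdown array and 0.46 without the 2-month control array.

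**Figure D4:**
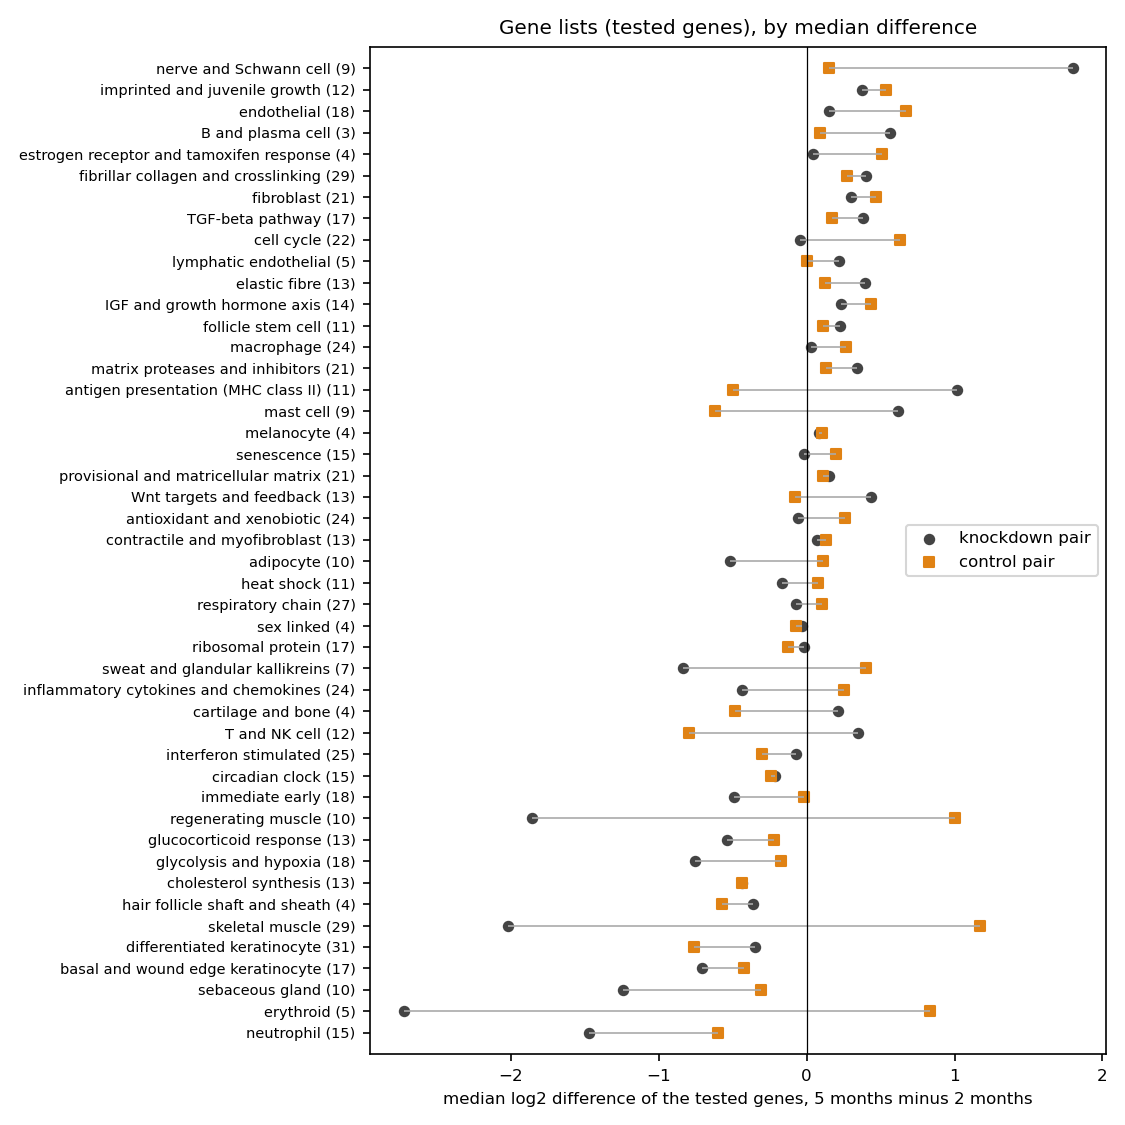
Median log2 difference on the x axis (5 months minus 2 months) of each gene list, with its number of tested genes, circles for the knockdown pair and squares for the control pair. Keratinocyte, neutrophil, cholesterol and glycolysis lists lie left of 0 in both pairs, collagen and imprinted growth lists right of 0 in both, and skeletal muscle and MHC class II lists are opposite.

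Metabolic genes of glycolysis and the hypoxia response were lower at 5 months: 15 of 18 in both genotypes (83.3%, against 23.7% of all genes). None was higher in both and 3 were opposite, with a median of -0.45. Slc2a1, the glucose transporter GLUT1, was at 10.31 and 10.80 at 5 months, against 11.87 and 11.40 at 2 months. Egln3, an oxygen-sensing prolyl hydroxylase that hypoxia induces, was at 11.31 and 9.99, against 12.17 and 11.98. Ankrd37, another gene of the hypoxia response, was at 7.79 and 6.82, against 9.73 and 7.89. Pfkl, a phosphofructokinase of glycolysis, was at 10.38 and 10.42, against 11.18 and 11.05. In 14 of the 18, both wounds at 5 months lay below both at 2 months, which held for 15.7% of all genes. Without the 2-month knockdown wound, whose Slc2a3 stood alone at 11.19, the median was -0.28.

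Cholesterol synthesis genes were lower in both genotypes in 11 of 13 (84.6%, against 23.7% of all genes), with a median of -0.46. Lss, lanosterol synthase, was at 7.28 and 7.61 at 5 months, against 7.91 and 8.50 at 2 months. Msmo1, the sterol methyl oxidase, was at 9.59 and 10.62, against 10.51 and 11.21, with the ages overlapping. The median lay between -0.62 and -0.24 with any array left out. Of 24 antioxidant and xenobiotic genes, 10 were higher in both genotypes (41.7%, near the 36.3% of all genes), 5 lower and 9 opposite, with a median of 0.08 and a mean of -0.05. Among the glutathione transferases of this list Gsta2 was at 7.02 and 6.78, against 8.11 and 7.91, whereas Gstm1 was at 9.76 and 9.60, against 9.49 and 9.34.

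Clock genes differed in a pattern that was even between the genotypes. Per1, a repressor of the clock, was at 8.81 and 8.73 at 5 months, against 9.62 and 9.46 at 2 months. Per3 was at 6.08 and 6.15, against 6.61 and 6.94, and Ciart, a further repressor, was at 7.33 and 7.38, against 8.12 and 8.34. The activator Arntl was on the other side, at 7.61 and 7.51, against 7.05 and 7.10. Nr1d1, a repressor of Arntl, was at 7.60 and 7.47, against 7.22 and 7.06. Dbp, an output gene of the clock, was at 12.06 and 11.88, against 12.34 and 12.36, and the nuclear receptor Rora was at 10.32 and 10.47, against 10.96 and 11.12. Of 14 clock genes tested, 2 were higher in both genotypes, 10 were lower in both and 2 were neither. The ages did not overlap in 9 of them, 2 with 5 months higher and 7 with 5 months lower. Over all genes the shares were 25.9% and 15.7%. The list as drawn up also held Ciapin1, an iron-sulfur protein that is no clock gene and was dropped from these counts after its values were seen. It was at 9.12 and 9.08 at 5 months, against 8.99 and 9.01 at 2 months, and with it 3 of 15 genes were higher in both. The sources used here give no time of day for the taking of the wounds, and it cannot be told apart from age.

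**Figure D5:**
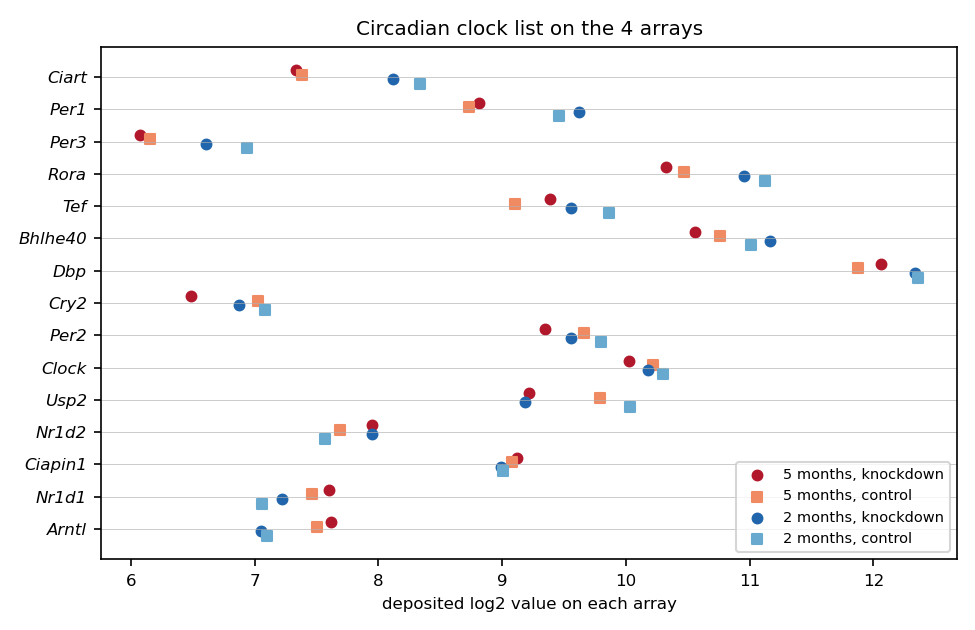
Log2 level (x axis) of circadian clock genes, with Ciapin1 from the list as drawn up, on each of the 4 arrays, with warm colours for 5 months and blue for 2 months, circles for knockdown and squares for control. Per1, Per3, Ciart and Rora lie lower at 5 months in both genotypes, and Arntl and Nr1d1 lie higher.

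Genes that glucocorticoids induce were lower in both genotypes in 8 of 13 (61.5%, against 23.7% of all genes), with none higher. The list's median was -0.44, and it was -0.23 without the 5-month knockdown array. Per1 belongs to this list as well. Tsc22d3, the leucine zipper gene GILZ, was at 10.74 and 10.92 at 5 months, against 11.17 and 11.41 at 2 months. Zbtb16 was at 5.80 and 6.07, against 6.34 and 6.41, whereas Fkbp5, another such target, was at 8.54 and 8.20, against 8.13 and 8.38, so the list was not uniform. Of 11 heat shock genes, 5 were lower in both genotypes, 2 higher and 4 opposite, with a median of 0.03 and a mean of -0.22, so the list had no common direction. Among the lower ones, Hspa1b was at 7.09 and 7.31, against 8.10 and 8.35, and Hspb1 was at 11.55 and 11.70, against 12.05 and 12.48. Hspa8, a chaperone of resting cells, was at 13.35 and 13.40, against 13.39 and 13.20.

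Schwann cell genes were higher mainly in the knockdown pair. Dhh, the hedgehog ligand of Schwann cells, was at 8.24 and 8.07 at 5 months, against 6.41 and 7.08 at 2 months. Sox10, a transcription factor of the neural crest, was at 9.69 and 8.57, against 6.28 and 8.74, so the 2-month knockdown wound was the low one. Of 9 such genes, 6 were higher in both genotypes (66.7%, against 36.3% of all genes) and none lower. The median was 1.80 in the knockdown pair and 0.15 in the control pair. The median over both, 1.03, was 0.52 without the 2-month knockdown array.

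Skeletal muscle genes had large differences, in opposite directions in the genotypes. Of 29 tested, 28 were opposite and 1, Myh4, was higher in both. The median difference was -2.02 in the knockdown pair and 1.17 in the control pair. Acta1, the actin of skeletal muscle, was at 11.34 and 14.92 at 5 months, against 13.94 and 13.59 at 2 months. The summed linear signal of the list was 19312 and 223816 at 5 months, against 95677 and 88387 at 2 months, so the 2 wounds at 5 months were the lowest and the highest of the 4. All 10 genes of regenerating muscle were likewise opposite. Neb was the one listed muscle gene not detected on enough arrays to be tested.

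MHC class II and dendritic cell genes were opposite the other way. Of 11 tested, 10 were higher in the knockdown pair and lower in the control pair, with medians of 1.02 and -0.50. H2-Ab1 was at 14.37 and 14.03 at 5 months, against 13.31 and 14.37 at 2 months, with the 2-month knockdown wound the low one. Cd83, of mature dendritic cells, was the gene higher in both, at 9.24 and 8.91, against 8.44 and 8.66. Cell cycle genes were higher mainly in the control pair: Cdc20 was at 9.78 and 10.20, against 9.93 and 9.06, and of 22 genes 8 were higher in both genotypes (36.4%, against 36.3% of all genes), none lower and 14 opposite. Their median of 0.28 was 0.03 without the 2-month control array and 0.56 without the 2-month knockdown array.

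The adenovirus arrays, also of wounds at 2 months, gave an outside view, with the limits that they come from another experiment and that both lack the Y-linked signal of the tamoxifen arrays, with Eif2s3y at 4.597 and 4.599. The value of the Adenovirus-CRE wound is given before that of the Adenovirus-GFP wound. Over all tested probes, their mean lay on the 2-month side of the midpoint between the ages for 50.7%. Of the probes at least 2-fold different in both genotypes, it lay on that side for 12 of the 16 higher and 45 of the 62 lower at 5 months. Some of these probes read the same gene, such as Klk13, or near copies, such as the Sprr2 genes, so they are not independent counts. The counts describe these arrays and are no test of the age difference. Sprr2f was at 9.26 and 11.12 on these arrays, above its levels of 6.13 and 4.80 in tamoxifen wounds at 5 months. Dlk1 was at 11.56 and 10.52, and Retnla at 11.91 and 8.003, so that in the Adenovirus-CRE wound Dlk1 was close to its 5-month levels and Retnla above them.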

How the data were processed

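Biotin-labelled total RNA of each wound was read on an Illumina bead array, per the labels' protocols. The authors deposited a table of log2 values, and a raw table with a linear intensity and a detection p-value per probe and array, per the file headers. The submitters' processing notes name R 2.14. No source used here states the normalization, and limma's neqc function applied to the raw intensities came within 0.0874 of the deposited log2 values. Of the raw table, 2 lines (0.00442%) named no probe and were dropped.

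Probes with a detection p-value under 0.01 on 2 or more of the 4 tamoxifen arrays were fitted with limma 3.58.1 in R 4.3.3, with age as the contrast and genotype as a block, with eBayes, and p-values were adjusted by Benjamini and Hochberg over 16565 probes. With 1 wound per genotype and age, the 1 residual degree of freedom holds only the disagreement between the knockdown pair and the control pair. The larger weight in each variance is limma's prior over all probes, with 2.66 degrees of freedom. Standard errors and p-values are therefore no measure of the spread between wounds of the same age and genotype. On simulated data for 16565 probes of this comparison the fit found none of the 50 changes of 2-fold (0%), and its recovery was 80% at 4-fold, 96% at 8-fold and 98% at 16-fold, with 7 false calls. These rates need not hold for the measured arrays, where Sprr2k, 8.37-fold lower at 5 months, had a limma adjusted p of 0.452. The lack of calls therefore does not show that large differences were absent. Of the array's 45281 probes, 34885 have 1 gene symbol, 18 several and 10378 none in GEO's platform annotation, and probes without 1 symbol were not named. A level below detection on both arrays of an age was replaced, per array, by the dimmest detected probe or the probe's own level, whichever was higher, for folds given as at least. No 2 arrays were identical.

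Named genes are the 15 each way with the largest smaller-of-the-pair differences of one sign, the 8 each way with opposite signs, up to 4 like-signed members of each list, and the check genes; other genes named, and the gene families, were chosen after their values were seen. The members and the 46 lists, of whose 971 symbols 105 were not matched, were chosen with earlier results of these data known. Alternatives changed the values used, the detection filter, the block, the variance prior, the arrays and the fold. RefSeq promoter windows were searched on both strands.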

Additional observations from a re-analysis of the deposited data

Results flagged for a closer look

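The age difference of the knockdown pair and that of the control pair had opposite signs in the results below, and each value is the knockdown pair's log2 difference (5 months minus 2 months) minus the control pair's. The difference between the genotypes was not tested, since each has 1 pair. Genes of skeletal muscle were lower at 5 months in the knockdown pair and higher in the control pair: the value was -4.56 for Ckm, -4.04 for Eno3, -4.05 for Myoz1, -4.80 for Mylpf, -3.68 for Pvalb, -4.83 for Itgb1bp2, -4.39 for Ckmt2 and -4.76 for Actc1. Genes higher at 5 months in the knockdown pair and lower in the control pair were Tmem45a2 with 3.09, H2-M2 with 3.00, Septin3 with 2.31, Ccl19 with 2.41, Artn with 2.31, Il12rb1 with 2.35, Igfbp2 with 2.70 and C2cd4a with 2.25. Igfbp2, for example, was at 8.77 and 8.25 in knockdown and control wounds at 5 months, against 7.73 and 9.91 at 2 months.

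The same subtraction on list medians gave -3.19 for skeletal muscle, -2.86 for regenerating muscle, -3.56 for erythroid genes, -1.24 for sweat and glandular kallikreins, -0.69 for inflammatory cytokines and chemokines, -0.68 for cell cycle, -0.63 for adipocyte, -0.32 for antioxidant, -0.24 for heat shock, -0.22 for senescence and -0.18 for respiratory chain genes. It was 1.51 for MHC class II, 1.24 for mast cell, 1.14 for T and NK cell, 0.69 for cartilage and bone and 0.52 for Wnt target genes. Each of these lists had medians of opposite sign in the pairs.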

How the results depend on the processing

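No probe passed an adjusted p under 0.05 in limma under any of the 12 alternatives run, with lowest adjusted p-values between 0.0704 (trended robust variance) and 0.825 (all 6 arrays), while 1671 probes passed unadjusted. The fit pairs wounds by genotype, and without that block 651 probes were higher and 723 lower at an unadjusted p under 0.05. By replicate number, no paired analysis was possible because that number is the same split of the arrays as the age. Probes with unadjusted p under 0.05 numbered 1683 higher and 1784 lower at 5 months with no detection filter, 434 and 566 with 1 probe per gene, and 407 and 574 with all 6 arrays. With 1 array left out they ranged from 357 to 797 higher and from 355 to 1006 lower, both lowest without the 5-month knockdown wound. Probes at least 2-fold different in both genotypes numbered 4 higher and 29 lower with median-centred intensities, 8 and 39 if detected on all 4 arrays, 167 and 362 at 1.5-fold, 10 and 38 with 1 probe per gene, and 8 and 30 between the nearest arrays. With 1 array left out, a choice made after seeing the data like that of the nearest arrays, the lone array was compared with both wounds of the other age, and the counts were 51 to 108 higher and 72 to 319 lower. The fewer probes tested or the easier rule sets several of these counts, and otherwise the cause was not tested.

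Over alternatives, 981 of the values of 168 named genes kept their direction and 27 did not. Median-centred intensities turned Klk1b24 to -0.0067 and the provisional matrix list to -0.054. The rest turned with 1 array left out, where the ranges were -0.957 to 2.12 for Myh4, -1.34 to 0.384 for Krt79, -2.76 to 0.0952 for Fa2h, -0.864 to 0.428 for Krt84, -1.56 to 0.249 for Krt15, -4.30 to 0.935 for Krt2, -0.274 to 0.0846 for Pdpn, -1.46 to 0.0926 for Bglap2, -0.974 to 1.23 for Klk1b1 and -0.986 to 1.10 for Klk1b24. They were -0.0175 to 0.406 for Tpm1, -0.153 to 0.775 for Wif1, -0.591 to 0.0320 for Myc, -2.26 to 0.148 for Aldh3a1, -0.162 to 0.0190 for Kdm6a and -0.156 to 0.0890 for Eif2s3y. With 1 array left out, 19 of the 46 list medians changed sign, 15 of them among the 16 lists whose medians were opposite in the pairs. The other 4 ranged from -1.24 to 0.0052 for basal keratinocyte, -0.349 to 0.00097 for interferon, -0.249 to 0.833 for melanocyte and -0.159 to 0.0539 for sex-linked genes. Of the 15, skeletal muscle ranged from -2.06 to 1.17, regenerating muscle from -1.72 to 0.945, glandular kallikreins from -1.72 to 1.22, erythroid from -2.39 to 0.509, mast cell from -0.555 to 0.631, MHC class II from -0.256 to 0.672, T and NK cell from -0.538 to 0.225, Wnt targets from -0.305 to 0.455 and senescence from -0.109 to 0.418.

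Signals at about 16 on the log2 scale are at its top, and probes below detection have only a bound.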

Other observations

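Of 25 interferon-stimulated genes, 22 had a mean difference below 0, but 9 were lower in both genotypes, 3 higher and 13 opposite, and the median of -0.21 ranged from -0.35 to 0.00097 with 1 array left out. In Ifi27, Mx2 and Oasl1 both wounds at 5 months lay above both at 2 months, and in 5 genes they lay below. Over all genes the shares were 25.9% and 15.7%. Oasl1 was at 7.42 and 7.61 in knockdown and control wounds at 5 months, against 7.27 and 6.51 at 2 months. Most T and NK cell genes were highest in the 2-month control wound, with Ctsw, a protease of cytotoxic cells, at 8.01 and 7.60 at 5 months, against 7.26 and 9.37 at 2 months. Glandular kallikreins differed more by genotype than by age: Klk1b21 was at 7.93 and 10.26 at 5 months, against 7.83 and 10.26 at 2 months, low in the knockdown wound each time. Ribosomal protein and respiratory chain genes differed little, with list medians of -0.08 and 0.02.

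Several genes of other kinds were at least 2-fold different in both genotypes. Uts2, which encodes the vasoactive peptide urotensin 2, was at 8.15 and 10.47 at 5 months, against 6.46 and 8.77 at 2 months. On this brightest probe the difference was 1.70 in each genotype, although the genotypes lay far apart. Its other tested probes were less even, with 0.52 in the knockdown pair and 1.03 in the control pair, and with 1.14 and 1.77. Pyy, a peptide hormone gene best known from the gut, was at 6.83 and 5.43, against 8.63 and 8.86, with the 5-month control level below detection. Sgpp2, a phosphatase of sphingosine phosphate, was below detection at 5 months and at 7.58 and 6.92 at 2 months, which is at least 2.31-fold lower at 5 months. Abca8a, a lipid transporter gene, was at 7.45 and 6.80 at 5 months and below detection at 2 months, which is at least 2.10-fold higher.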
